A study of Mus musculus with 9 samples.

Results

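The nuclear factor I (NFI) family of transcription factors was described across the development of the mouse eosinophil. Its 4 genes, Nfia, Nfib, Nfic and Nfix, were taken by gene symbol from deposited tables of 23471 genes, in which all 4 were found. Each gene encodes a protein with a conserved N-terminal part that binds DNA and pairs with another NFI protein, and the pair recognises a palindrome in which the letters TTGGC face each other. In mouse bone marrow Nfix is known for its role in the survival of transplanted stem cells and in the choice between myeloid and B lymphoid fates. In human progenitors NFIA is known to favour the erythroid over the granulocytic fate, and the granulocytic microRNA miR-223 is known to repress it. Nfib is best known from lung and brain development and Nfic from the tooth root.

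All cells came from bone marrow pooled over Balb/c mice that had received no treatment; age and sex are not given in the labels. Granulocyte-macrophage progenitors (GMP) were sorted as lineage-negative cells bearing CD34, high c-kit and CD16/32. Eosinophil progenitors (EoP) were lineage-negative cells bearing CD34, low c-kit and CD125, the interleukin-5 receptor alpha chain. Mature eosinophils (Eos) were sorted on Siglec-F and CCR3. RNA was sequenced in 2 libraries of each cell type, from separate sorts, and the histone mark H3K4me3, which lies at active and poised promoters, was profiled in 1 library of each. Whether the sorts used different animals is not stated, so p-values measure the spread between these libraries, which may be technical.

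The RNA libraries held between 5226653 and 12088134 counts, with GMP the shallowest. A list of 10 eosinophil markers found in the tables summed to 1240 and 318 CPM (counts scaled by library size and TMM factors) in GMP, 241500 and 193000 CPM in EoP and 21300 and 25070 CPM in Eos. None of the 10 had 0 counts in every library. A list of 10 neutrophil markers summed to 1924 and 555 CPM in GMP, 616 and 261 CPM in EoP and 40660 and 47440 CPM in Eos, so the Eos libraries also carried RNA of genes known from neutrophils. A list of 12 stromal and endothelial markers summed to 27.2 and 36.8 CPM in GMP, 29.9 and 26.9 CPM in EoP and 16.2 and 15.7 CPM in Eos. In sorted bulk samples, fewer cells of a type and less RNA per cell cannot be told apart.

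On mm10 the deposited tables place Nfia at chr4:97581943-98118876 on the plus strand, Nfib at chr4:82290173-82505308, Nfic at chr10:81396191-81427173 and Nfix at chr8:84707599-84800340, these last on the minus strand. The start regions of the family differed in their H3K4me3 and in their sequence, and 2 of them are printed as opposite cases. The first is the listed start of the longest Nfia transcript, which had no peak within 3000 bases in any cell type. The second is the listed start of Nfic, which had a peak within 1000 bases in every cell type. RefSeq windows on GRCm38.p6, of 250 bases before and 50 bases after the start, are shown in the direction of transcription with each CpG dinucleotide in capitals.
Nfia, chr4:97581693-97581992, plus strand: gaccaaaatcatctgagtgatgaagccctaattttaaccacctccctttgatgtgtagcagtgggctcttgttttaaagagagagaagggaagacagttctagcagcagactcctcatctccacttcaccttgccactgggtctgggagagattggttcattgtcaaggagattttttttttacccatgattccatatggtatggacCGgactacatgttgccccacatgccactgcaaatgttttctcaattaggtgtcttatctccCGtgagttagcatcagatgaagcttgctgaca
Nfic, chr10:81427124-81427423, minus strand: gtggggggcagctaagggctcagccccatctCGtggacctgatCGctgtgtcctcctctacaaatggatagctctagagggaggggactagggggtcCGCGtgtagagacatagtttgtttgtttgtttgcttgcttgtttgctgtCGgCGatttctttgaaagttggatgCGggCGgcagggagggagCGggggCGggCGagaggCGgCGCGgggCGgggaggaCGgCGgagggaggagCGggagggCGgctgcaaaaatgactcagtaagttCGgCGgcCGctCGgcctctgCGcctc
The Nfia window held 2 CpG, and 14.1% of 32851 RefSeq start windows of the same length held fewer. The Nfic window held 24 CpG, and 80.0% of windows held fewer, against a median of 7 over all windows. The NFI palindrome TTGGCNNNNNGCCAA reads the same on both strands. It was in neither window and in 0.0365% of all windows. The shorter TTGGC, searched on both strands, was also in neither and stood in 46.7% of all windows; every palindrome contains it on each strand. The 4 Nfix windows given by RefSeq lie at other starts than those listed in the deposited tables. No window was at hand for Nfib or for the other listed Nfia start, at 97777626, which had peaks within 1000 bases in every cell type. The printed Nfia window is therefore not that of the marked Nfia start.

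Nfic had the highest summed RPKM of the family in every library, followed by Nfix and then Nfia, and Nfib was close to 0. On the RPKM scale (reads per kilobase of transcript scaled by library, summed over the transcripts of a gene), Nfic had 4.25 and 5.40 in GMP, 4.23 and 5.75 in EoP and 4.83 and 3.50 in Eos. Nfix had 3.64 and 3.34 RPKM in GMP, 1.24 and 1.97 in EoP and 0.847 and 0.525 in Eos. Nfia had 0.361 and 0.334 RPKM in GMP, 0.150 and 0.208 in EoP and 0.462 and 0.432 in Eos. This order, with Nfic first and Nfib last, held in all 6 libraries, although Nfic and Nfix stood close together in GMP and Nfix and Nfia close together in Eos. When each gene was represented by its highest transcript instead, Nfix came first in GMP replicate 1, with 50.9% of the family against 42.3% for Nfic, and Nfic came first in the other 5 libraries. Nfib had at most 0.0340 RPKM in any library. Mean Nfic RPKM lay above that of 82.4% of all genes in GMP, 78.0% in EoP and 80.5% in Eos, while mean Nfix RPKM lay above 77.5%, 64.5% and 60.5% of genes in the same order of cell types.

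Nfic and Nfix made up comparable shares of the family in GMP, and Nfic made up most of it in EoP and Eos. Of the summed NFI RPKM, Nfic made up 55.3 ± 5.59% in GMP, 73.9 ± 1.81% in EoP and 78.4 ± 0.0495% in Eos (SD, n = 2 each). Nfix made up 40.4 ± 5.16% in GMP, 23.4 ± 1.98% in EoP and 12.8 ± 1.42% in Eos. Nfia held 4.01 ± 0.489% in GMP, 2.65 ± 0.0361% in EoP and 8.59 ± 1.53% in Eos. Within a library, where no scaling between libraries matters, the ratio of Nfic to Nfix stood at 1.17 and 1.61 in GMP, 3.42 and 2.93 in EoP and 5.70 and 6.68 in Eos. Libraries of the 3 cell types did not overlap in this ratio. Some transcripts of a gene had equal counts in a library and may hold the same reads. Taken once, they left 27 of 49 Nfix counts and 64 of 128 Nfia counts in Eos replicate 2. No ratio or share of the family was computed on such counts. With 2 libraries a group an exact permutation test cannot give a two-sided p below 0.333, so no test was made of these shares.

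**Figure D1:**
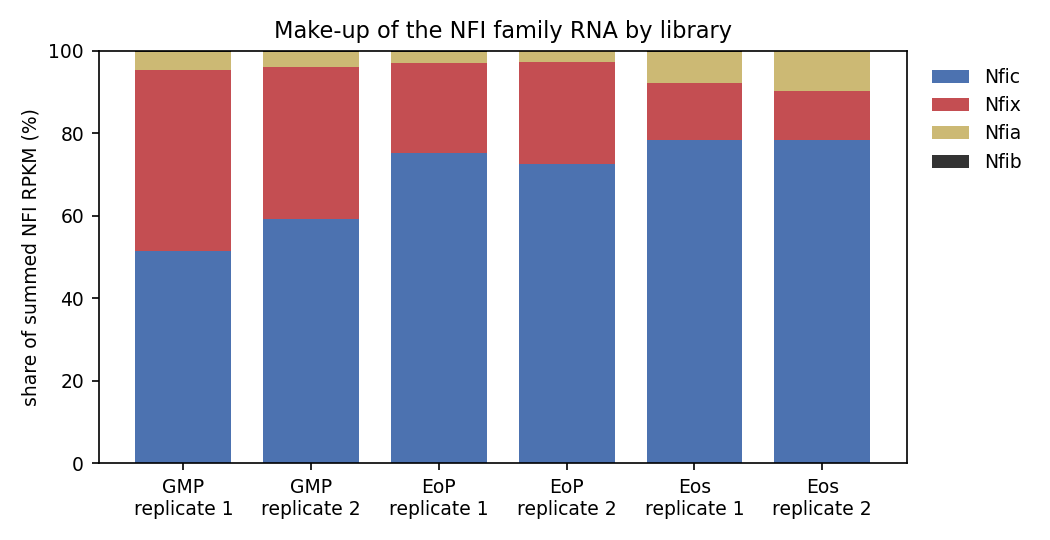
Stacked bars show, for each of the 6 RNA libraries, the percentage of the summed RPKM of the 4 NFI genes that each gene took, from 0 to 100% on the vertical axis. The Nfix part is smaller in every EoP library than in every GMP library and smaller again in Eos, where it was 13.8% and 11.7%.

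In EoP, Nfix and Nfia were lower than in GMP, and Nfic, the most abundant member, did not pass the test. Nfix had 9.08 and 12.8 CPM in EoP, against 28.1 and 27.9 CPM in GMP. Both EoP libraries lay well below both GMP libraries, which were nearly equal. This is a 2.55-fold difference with a log2 value of −1.35 and an SE of 0.32 (quasi-likelihood test in edgeR, adjusted p = 0.0145 by Benjamini-Hochberg).

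Nfia moved in the same direction, from less RNA. It had 3.30 and 4.37 CPM in EoP, against 9.68 and 9.39 CPM in GMP, again with no overlap between the groups. The share of all genes without overlap was not computed for any comparison, so such separation, here and below, is description only. The difference was 2.47-fold, with a log2 value of −1.30, an SE of 0.38 and an adjusted p = 0.0295. Nfic had 66.2 and 82.7 CPM in EoP, against 76.7 and 101 CPM in GMP, with overlapping libraries (log2 fold change −0.26, SE 0.23, adjusted p = 0.460).

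Of the 3 members tested, 2 were lower and 0 higher, where 17.1% of the 14324 genes tested were lower and 9.49% higher, 26.6% in all. The Nfix and Nfia calls were both lost in each of the 4 fits that lacked a GMP or an EoP library, with log2 fold changes between −1.10 and −1.44 for Nfix and between −1.09 and −1.35 for Nfia over all 6 such fits. Each of the 4 fits left 1 library in GMP or in EoP, and fewer of all genes tested passed in each of them too. The loss is thus not particular to Nfix and Nfia. Beside the 2 members, the list of 16 stem and multipotent progenitor markers summed to 441 and 565 CPM in EoP and 771 and 793 CPM in GMP, with none at 0 in every library. Its 16 tested members had 0 rises and 8 falls, and 2 to 4 falls without any GMP or EoP library. Of 10 GMP markers 2 rose and 7 fell, with sums of 2961 and 3547 CPM in EoP, against 42640 and 39920 CPM in GMP. The 2 EoP libraries differed in mast cell and basophil markers, which summed to 1821 and 4727 CPM in EoP, against 1636 and 1622 CPM in GMP. Of 9 such markers tested 1 rose and 1 fell. The part of these lists in the lower Nfix and Nfia was not tested.

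Nfib was detected in too few reads for the test. Its estimated counts were 1 and 0 in EoP and 4 and 4 in GMP. The ratio of EoP to GMP, scaled by library, was 0.0929 (95% exact interval 0.00209 to 0.693, for counting error only). In GMP replicate 2 the 4 counts were 2 each of 2 transcripts, and with equal counts taken once Nfib had 2 there. The interval was not computed on those counts, so it does not show that EoP lay below GMP. Nfib had 5 and 1 counts in Eos, and the ratio of Eos to GMP was 0.607 (0.174 to 1.99). The ratio of Eos to EoP was 6.53 (0.792 to 300.4). With so few counts no level of Nfib could be set in any of the 3 cell types.

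**Figure D2:**
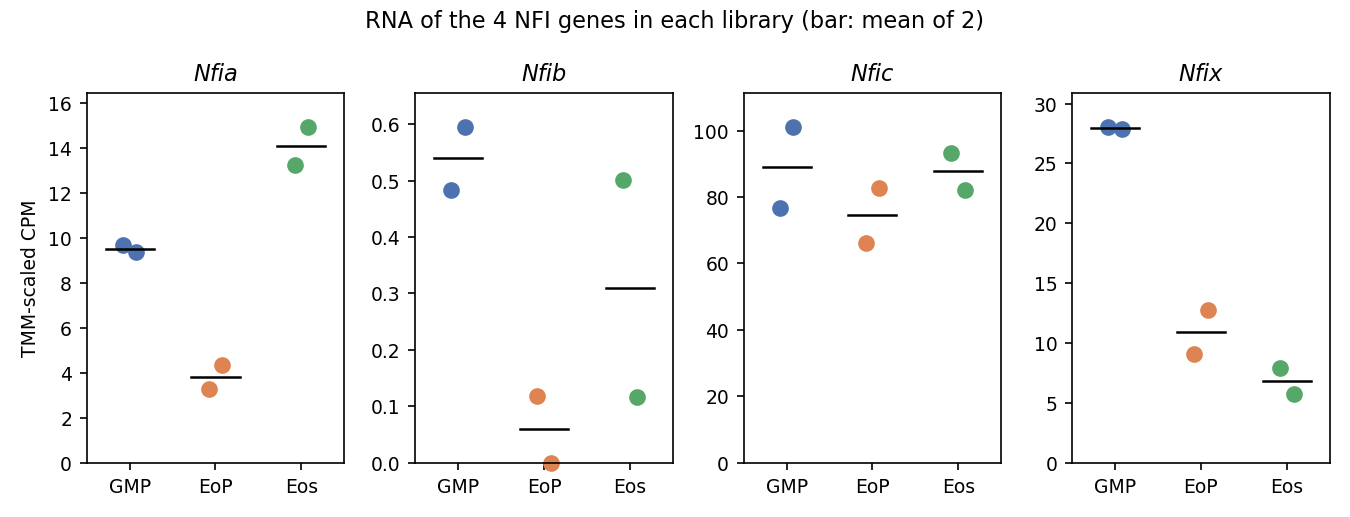
Each panel shows 1 NFI gene, with 1 point per RNA library and a bar at the mean of 2 libraries, on a vertical axis of TMM-scaled CPM that starts at 0 and has its own range in each panel. Nfia is lowest in EoP and highest in Eos, Nfix is highest in GMP, and the Nfic points of the 3 cell types overlap.

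In mature eosinophils Nfia was higher than in EoP, while Nfix and Nfic did not pass the test. Nfia had 13.3 and 15.0 CPM in Eos, against 3.30 and 4.37 CPM in EoP. Both Eos libraries lay above both EoP libraries and above both GMP libraries. The rise over EoP was 3.65-fold (log2 fold change 1.87, SE 0.38, adjusted p = 0.00432 in edgeR). This call was kept without each of the 6 libraries in turn, at log2 fold changes from 1.67 to 2.12 and adjusted p up to 0.0392. In limma on log2(RPKM + 0.5) without a filter, a scale that understates the change of low genes, the difference was 0.48 and the call was lost (adjusted p = 0.0770).

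Nfix had 7.93 and 5.73 CPM in Eos, against 9.08 and 12.8 CPM in EoP. The Eos libraries lay below the EoP libraries by less than the test could call (log2 fold change −0.68, SE 0.33, adjusted p = 0.132). On the deposited RPKM scale Nfix passed (limma on log2(RPKM + 0.5), −0.82, adjusted p = 0.0335), in a fit whose median over all genes was −0.54, but not in the same fit without the filter (−0.82, adjusted p = 0.0945). Nfic had 93.4 and 82.1 CPM in Eos and 66.2 and 82.7 CPM in EoP, which overlapped (log2 fold change 0.24, SE 0.23, adjusted p = 0.439).

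Of the 3 members tested, 1 was higher and 0 lower in Eos than in EoP, where 19.1% of all genes tested were higher and 17.7% lower, 36.8% in all. All 10 neutrophil markers rose between the same libraries, to sums of 40660 and 47440 CPM in Eos, against 616 and 261 CPM in EoP. Retnlg alone held 20590 and 35160 CPM of the Eos sums. Other markers of the list differed in both directions between the Eos libraries, as S100a9 with 8732 and 4392 CPM and Mmp9 with 410 and 529 CPM. Of 11 erythroid markers tested 8 rose and 1 fell, with a median log2 fold change of 2.75, although the list summed to 268 and 322 CPM in Eos, against 411 and 290 CPM in EoP. Hbb-b1 and Hbb-bs, both among the rises, had equal counts in every library (240 and 576 in Eos), so they may be 1 measurement. Of 10 GMP markers 6 rose and 2 fell, with sums of 15530 and 5948 CPM in Eos, against 2961 and 3547 CPM in EoP. Of 8 B cell markers 4 rose and 0 fell, becoming 1 rise without Eos replicate 1 and 6 without EoP replicate 2. Of 9 mast cell and basophil markers 0 rose and 8 fell, with sums of 386 and 175 CPM in Eos, against 1821 and 4727 CPM in EoP. No marker of these lists was at 0 in every library, and their part in the Nfia rise was not tested. Whether the change of Nfia differed from that of Nfix between these cell types was not tested either; the ratio of Nfix to Nfia RPKM was 1.83 and 1.22 in Eos, against 8.24 and 9.47 in EoP.

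Across the whole path, from GMP to mature cells, Nfix was the member that passed the test. It had 7.93 and 5.73 CPM in Eos, against 28.1 and 27.9 CPM in GMP. The difference was 4.08-fold, with a log2 value of −2.03, an SE of 0.33 and an adjusted p = 0.00106. The call was kept in all 20 alternative fits, and the log2 fold change ran from −1.79 to −2.27 without a library. Nfia had 13.3 and 15.0 CPM in Eos and 9.68 and 9.39 CPM in GMP, without overlap, but did not pass (log2 fold change 0.56, SE 0.36, adjusted p = 0.202), and the sign turned when transcripts of equal count were taken once. Nfic had 93.4 and 82.1 CPM in Eos and 76.7 and 101 CPM in GMP (log2 fold change −0.02, SE 0.23, adjusted p = 0.949).

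In this comparison 1 of the 3 members was lower and 0 higher, where 31.8% of all genes tested were lower and 22.7% higher, 54.5% in all. The median log2 fold change over all genes was −0.39, and that of Nfix lay well below it. Between the same libraries all 10 neutrophil markers rose and 8 of 9 mast cell and basophil markers fell, a list that summed to 386 and 175 CPM in Eos, against 1636 and 1622 CPM in GMP. Of 10 GMP markers 2 rose and 7 fell, with sums of 15530 and 5948 CPM in Eos, against 42640 and 39920 CPM in GMP. Of 16 stem and multipotent progenitor markers 1 rose and 7 fell, with sums of 694 and 628 CPM in Eos, against 771 and 793 CPM in GMP; the 7 falls became 4 without GMP replicate 1. The part of these markers in the lower Nfix was not tested. The 3 comparisons share libraries, so their values for a member are not independent.

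**Figure D3:**
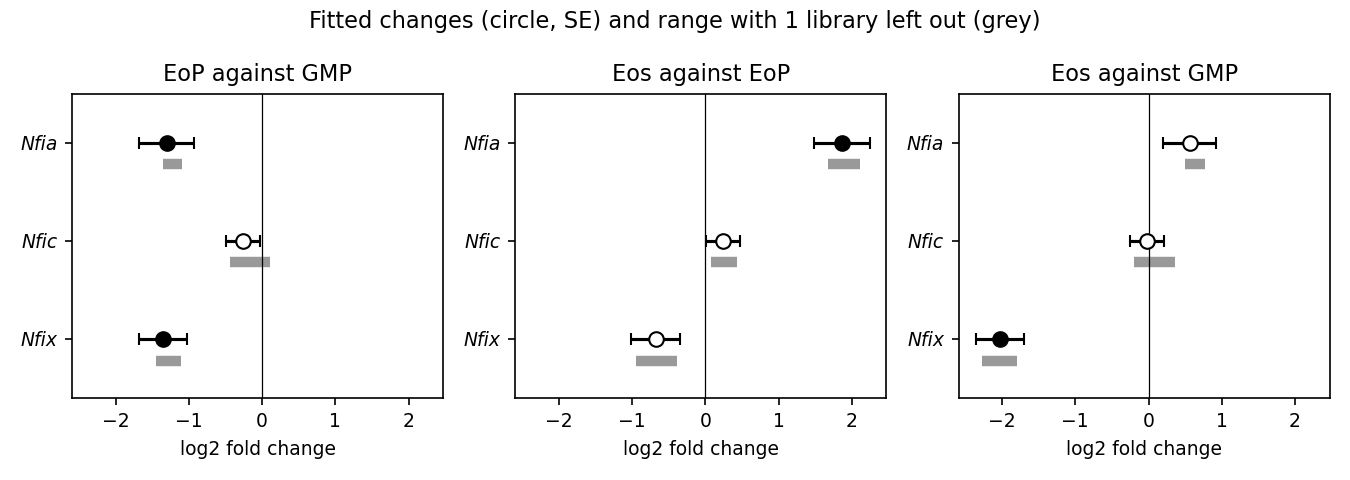
Each panel is 1 comparison, with the fitted log2 fold change of Nfia, Nfic and Nfix on the horizontal axis (circle, with its standard error; filled where the Benjamini-Hochberg adjusted p is under 0.05) and, in grey, its range over fits without 1 library. Nfix lies to the left of 0 in every panel, Nfia changes side between the first and the second panel, and the Nfic range spans 0 in the first and the last.

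The transcripts of a gene could not be told apart well. The tables list 3 Nfia, 3 Nfib, 2 Nfic and 3 Nfix transcripts, and their counts split differently between libraries of 1 cell type. In GMP, all 80 Nfia counts of replicate 1 were given to NM_001122953 and all 63 of replicate 2 to NM_010905, which share a start. For Nfic, NM_026756 had 120 and 1 counts in EoP and 358 and 299 in GMP, while NM_008688 had 441 and 964 in EoP and 276 and 380 in GMP. For Nfix, NM_010906 had 11 and 0 counts in EoP and 181 and 47 in GMP, and NM_001081982 had 37 and 122 in EoP and 35 and 115 in GMP. The remaining Nfix transcript, NM_001081981, begins at a start inside the gene and had 16 and 25 counts in GMP, 29 and 27 in EoP and 38 and 22 in Eos.

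Of the 8 NFI transcripts tested, 0 passed in EoP against GMP in edgeR, where 1.84% of the 17460 transcripts tested were higher and 0.802% lower, 2.65% in all; 1 had an unadjusted p under 0.05. In Eos against EoP 0 of 8 passed, where 9.21% were higher and 5.56% lower, 14.8% in all; 0 had an unadjusted p under 0.05. In Eos against GMP 2 of 8 had an unadjusted p under 0.05, Nfia NM_001122952 and Nfix NM_010906. After adjustment 1 of 8 passed, where 14.9% were higher and 11.7% lower, 26.7% in all. It was the long Nfia transcript NM_001122952, with 31 and 64 counts in Eos and 0 and 0 in GMP, at least 25.6-fold higher in Eos against a floor of 3 counts over the GMP libraries (adjusted p = 0.0225). The call was lost in 5 of 6 fits without a library, being kept without Eos replicate 1. In all EoP and Eos libraries its counts equalled those of NM_010905 exactly, at 14 and 9 in EoP and 31 and 64 in Eos. The tables do not show whether such equal counts are 1 set of reads divided between transcripts or the same reads entered for each. With equal counts of a gene's transcripts taken once, an alternative chosen after seeing the data, Nfia had 80 and 63 counts in GMP, 14 and 42 in EoP and 101 and 64 in Eos. Nfix had 27 counts instead of 49 in Eos replicate 2. Every gene call of Nfia and Nfix was kept in the fit of these counts. Nfia had a log2 fold change of −1.83 in EoP against GMP (edgeR adjusted p = 0.0224) and of 1.72 in Eos against EoP (adjusted p = 0.0215). In Eos against GMP it had the opposite sign, at −0.11 (adjusted p = 0.845). The start of the long transcript NM_001122952 is the one printed above without a peak.

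All 4 members had a promoter peak listed in GMP, and 3 (Nfia, Nfic and Nfix) in each of EoP and Eos. Of all 23471 genes in the RNA tables, 45.1% had one in GMP, 37.4% in EoP and 39.6% in Eos. With the same number of top-ranked peaks taken from each list, 3 members (Nfia, Nfic and Nfix) kept one in each cell type, as did 40.6% of all genes in GMP, 37.4% in EoP and 36.9% in Eos. Nfib was left out because its GMP peak ranked too low. Fold enrichment and −log10 q are the authors' own values for a peak and are given within its list, with the share of that list's promoter peaks below it. The lists had 30645 peaks in GMP, 19816 in EoP and 33847 in Eos, from 1 library each, so differences between them have no replicate check and no test. Coordinates are on mm10.

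The Nfia mark lay at an inner start and in the intron before it. Promoter peaks covered 946 bases in GMP, 607 in EoP and 433 in Eos after the start at 97777626 on chromosome 4. The highest, chr4:97777691-97778373 in GMP, had a fold enrichment of 8.43, above 60.0% of promoter peaks of its list. In EoP the highest fold enrichment was 5.92 (38.6%) and in Eos 5.06 (25.0%). In each list the highest Nfia peak was annotated as intronic. The peak at chr4:97757366-97758112 had a fold enrichment of 10.1 in GMP, with its summit 20077 bases before the inner start. Closer to that start, chr4:97771820-97772253 had 9.31 in GMP, chr4:97771650-97772279 had 8.19 in EoP and chr4:97771994-97772322 had 9.45 in Eos. Their summits lay between 5470 and 5536 bases before it. At the long transcript's start at 97581943 the nearest peak was 23980 bases away in GMP, 164174 in EoP and 169475 in Eos. All 9 Nfia peaks of EoP overlapped an Nfia peak of GMP.

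The Nfix mark lay around the upstream start at 84800340 on chromosome 8 in all 3 cell types. Nfix RNA was lower in EoP and in Eos than in GMP, and Eos against EoP did not pass the test. At a −log10 q of at least 10, Nfix kept a promoter peak in Eos but not in GMP or EoP. The peak nearest the start had a fold enrichment of 7.53 in GMP (chr8:84800485-84800688), 4.37 in EoP (chr8:84800550-84800694) and 8.60 in Eos (chr8:84800476-84800779). That was above 53.1% of promoter peaks of the GMP list, 13.3% of the EoP list and 61.2% of the Eos list. The second Nfix start, at 84774369, had a peak within 1000 bases in GMP, chr8:84773897-84774030 with a fold enrichment of 5.37, and none in EoP or Eos. In Eos a peak at chr8:84707082-84707777 spanned the listed end of the gene, with a fold enrichment of 3.92.

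Nfic had 1 promoter peak in each list, just inside its listed start at 81427173 on chromosome 10. It covered 774 bases in GMP (fold enrichment 8.72), 605 in EoP (3.83) and 370 in Eos (6.45). It was above 62.5% of promoter peaks of the GMP list, 5.38% of the EoP list and 40.6% of the Eos list. The peaks reached 0 bases into the printed window in GMP, 38 in EoP and 21 in Eos. A peak annotated to an Nfic exon, about 20 kilobases into the gene, was listed in all 3 cell types, at chr10:81407221-81407596 in GMP, chr10:81407087-81407665 in EoP and chr10:81406991-81407694 in Eos. Peaks annotated as upstream of Nfic were also listed in every cell type. They included chr10:81430544-81430822 in GMP (fold enrichment 5.07), chr10:81431064-81431234 in EoP (3.77) and chr10:81430065-81430340 in Eos (4.67). The RefSeq span of Nfic runs to 81431919, past the listed start, and holds these named upstream peaks.

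Nfib had a single promoter peak, in GMP, at chr4:82505950-82506071, with a pileup of 5 and a fold enrichment of 3.86, above 11.9% of promoter peaks of that list. A peak upstream of the gene was listed in every cell type, at chr4:82512946-82513210 in GMP, chr4:82512930-82513091 in EoP and chr4:82512918-82513056 in Eos. Its summit lay 7701 bases before the start in GMP, 7686 in EoP and 7690 in Eos.

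**Figure D4:**
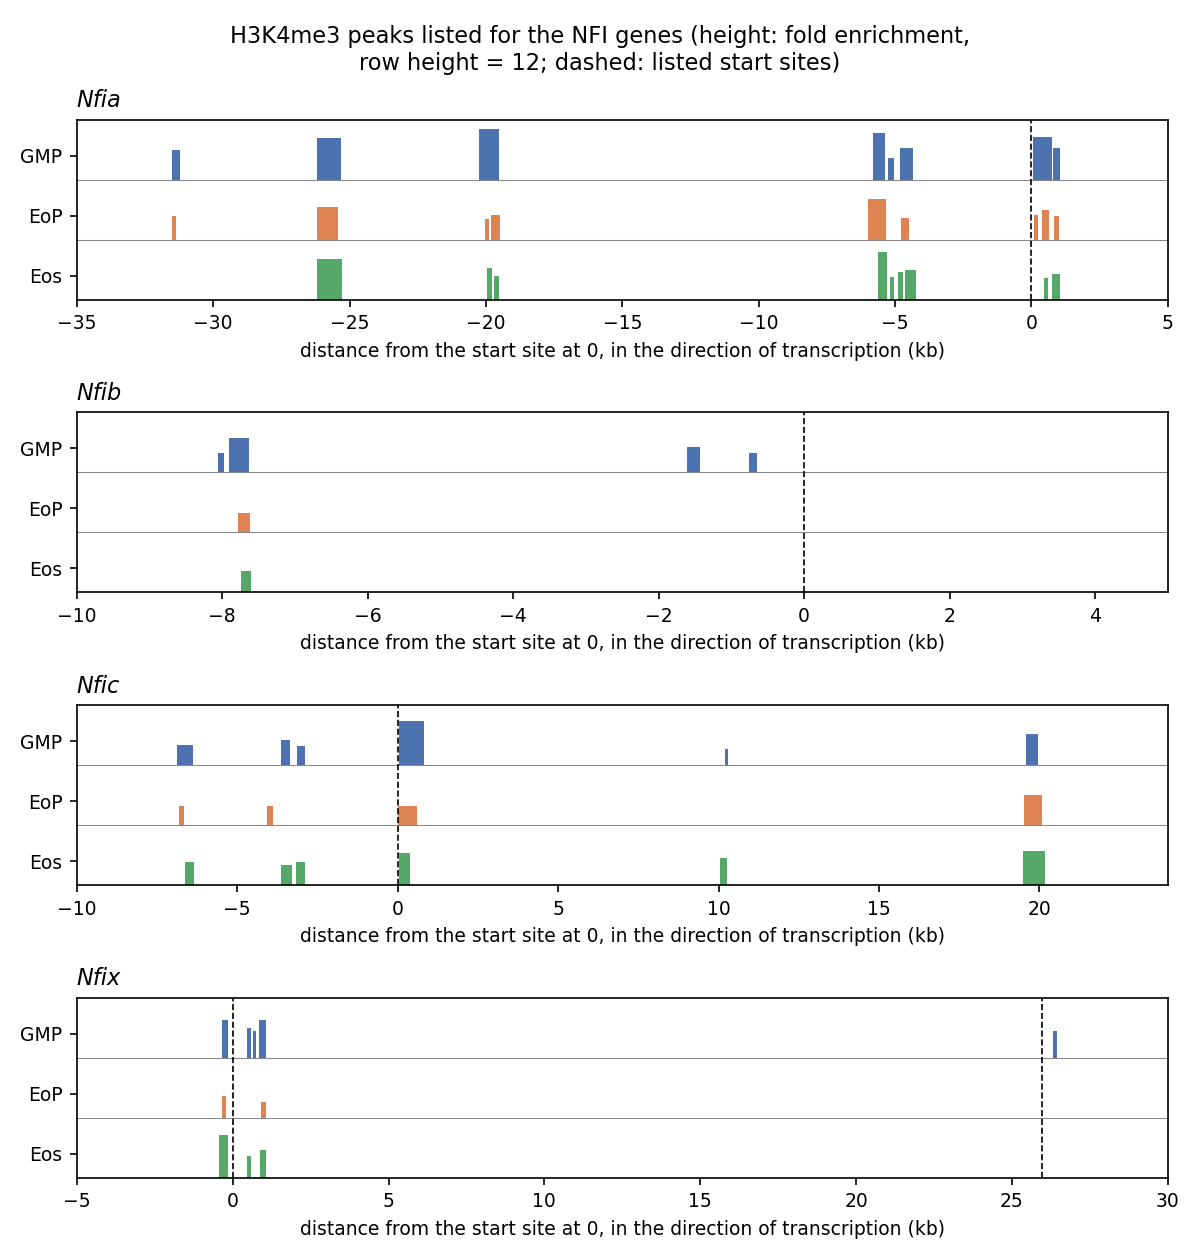
For each NFI gene, boxes show the listed H3K4me3 peaks of GMP, EoP and Eos by distance in kilobases from a listed start at 0, with positive values in the direction of transcription; box height is fold enrichment, a full row being 12, and dashed lines are listed starts in view. Nfia peaks lie before and just after the inner start. In every cell type, peaks lie on both sides of the upstream Nfix start and of the Nfic start. The Nfib start has a nearby peak in GMP and none in EoP or Eos.

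The genes whose level followed each member most closely over the 6 RNA libraries were found by the root mean square difference of centred log2 CPM. Closest to Nfix were Ticam2, an adaptor of Toll-like receptor signalling (difference 0.115), Zc3hav1l (0.118) and Il12a, a subunit of interleukin-12 (0.138). Ticam2 had 31.6 and 34.3 CPM in GMP, 11.7 and 18.3 in EoP and 9.44 and 6.55 in Eos. Closest to Nfia were Pvrl4, a nectin (0.120), Sort1, the sorting receptor sortilin (0.148), and Casp1, the inflammasome caspase (0.166). Sort1 had 304 and 244 CPM in GMP, 91.8 and 118 in EoP and 339 and 327 in Eos. Closest to Nfic were Zc3h4 (0.0460), Xrn2, a nuclear exonuclease (0.0850), and Slc25a47 (0.0900). Between members the difference was 1.21 for Nfia and Nfix, 0.834 for Nfic and Nfix and 0.678 for Nfia and Nfic. The genes named above were picked as the closest, so these values cannot be set against theirs. Pearson's r over the 6 libraries ran from 0.903 to 0.997 for these 9 genes, which were picked from 14324 for likeness.

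Regulators known to act with or around NFI proteins in blood cells moved in both directions. Of 21 listed, 19 were in the tables and 18 were tested. In EoP against GMP 3 rose and 5 fell, where 9.49% of all genes were higher and 17.1% lower, with a median log2 fold change of −0.22 against −0.07 over all genes. The risers were the erythroid and eosinophil factor Gata1 (3.76, SE 0.29), the erythroid and megakaryocytic factor Gfi1b (3.40, SE 0.73) and the granule regulator Cebpe (2.76, SE 0.31). Falls included the growth factor receptors Csf3r (−4.40, SE 0.33) and Csf1r (−3.49, SE 0.49) and the myeloid factor Cebpa (−1.59, SE 0.42). The Cebpa call was lost when either GMP library or EoP replicate 1 was absent, at log2 fold changes from −1.03 to −2.31 over all fits without a library; the 5 falls became 2 in each of these fits. Gfi1b had 3 and 43 counts in GMP, and its value was 2.43 without GMP replicate 1 and 6.66 without GMP replicate 2. That of Cebpe was 3.40 without GMP replicate 2, and that of Csf1r was −2.89 without EoP replicate 1 and −4.33 without EoP replicate 2.

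In Eos against EoP 6 of the 18 rose and 3 fell, where 19.1% of all genes were higher and 17.7% lower, with a median of 0.28 against 0.02 over all genes. Csf1r (4.77, SE 0.51) and Csf3r (3.98, SE 0.33) were highest, followed by Lmo2 (0.96, SE 0.23) and Sfpi1, which encodes PU.1 (0.88, SE 0.23). Gata2 (−2.83, SE 0.55), Runx1 (−1.54, SE 0.32) and Tal1 (−0.90, SE 0.27) fell. The 6 rises became 3 without EoP replicate 1 and 3 without EoP replicate 2, and the 3 falls became 2 without any of 4 libraries and 5 without Eos replicate 1. The Lmo2 call was lost without EoP replicate 1, the Sfpi1 call without EoP replicate 2, and the Tal1 call without either GMP library, EoP replicate 1 or Eos replicate 2. Without a library the value of Csf1r was 5.81 (EoP replicate 2) or 4.16 (Eos replicate 2), and that of Gata2 was −3.44 (EoP replicate 1), −1.74 (EoP replicate 2) or −3.64 (Eos replicate 1). Like Nfia, Csf1r, Csf3r and Lmo2 passed in both directions, lower in EoP than in GMP and higher in Eos than in EoP. The share of all genes that passed in both of these directions was not computed, so these genes cannot be set against it. The first Lmo2 call was lost without any GMP or EoP library.

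In Eos against GMP 7 rose and 6 fell, 13 of 18, where 22.7% of all genes were higher and 31.8% lower, 54.5% in all, with a median of 0.00 against −0.39. Gfi1b (4.55, SE 0.74), Gata1 (4.01, SE 0.29), Cebpe (2.11, SE 0.31) and Cebpb (1.69, SE 0.55) rose most, and Gata2 (−2.81, SE 0.55), Cebpa (−1.89, SE 0.43) and Tal1 (−1.70, SE 0.28) were among those that fell. The Gfi1b value was 3.57 without GMP replicate 1 and 7.82 without GMP replicate 2, that of Cebpe 2.76 without GMP replicate 2 and that of Gata2 −3.60 without Eos replicate 1. The 7 rises became 4 without GMP replicate 1, and the 6 falls 4 without either GMP library. The Cebpb call was lost without either GMP library or Eos replicate 2, and the Cebpa call without GMP replicate 2. Mir223, the gene of miR-223, had 2 counts in GMP replicate 2 and 0 in every other library, and tables of long RNA do not measure the mature microRNA.

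Of 9 genes that NFI proteins are known to regulate in brain or muscle, 4 were tested, with 1 higher and 0 lower in EoP against GMP, 0 higher and 1 lower in Eos against EoP and 1 higher and 1 lower in Eos against GMP. Over all genes 26.6%, 36.8% and 54.5% were called in these comparisons, and 4 genes are too few to set against those shares. The median log2 fold change of the 4 was 0.28 in EoP against GMP, −1.36 in Eos against EoP and −0.93 in Eos against GMP, where that of all genes was −0.07, 0.02 and −0.39. Gfap, Hes1, Sox9, Nfatc4 and Myh7 were left out by the expression filter. Ezh2, a histone methyltransferase that Nfib represses in the mouse cortex, had 145 and 146 CPM in GMP, 233 and 235 in EoP and 84.4 and 65.1 in Eos. It rose by 0.68 (SE 0.21) in EoP against GMP, a call lost without any GMP or EoP library, fell by 1.65 (SE 0.22) in Eos against EoP, and fell by 0.96 (SE 0.22) in Eos against GMP, a call lost without GMP replicate 2. Bbx, which was higher in mouse brain lacking Nfix, rose by 0.66 (SE 0.22) in Eos against GMP, a call lost in 4 of 6 fits without a library.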

How the data were processed

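RNA was measured in 6 libraries and H3K4me3 in 3, grouped by title. The RNA tables give, per RefSeq transcript, the authors' estimated count, deposited as whole numbers, and the deposited RPKM, whose steps at low counts show that the counts are rounded. Per the submitters' processing notes, STAR 2.4.0c, Bowtie 1.0.0 and the mm10 build were used, with no role stated. No label or header names the tool that counted reads, the peak caller or its control. The peak tables hold, per the file headers, each summit's pileup signal, −log10 p and q and fold enrichment; summits of an interval were joined. H3K4me3 read depth is unknown.

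Counts were summed over the 31213 lines per gene and tested in edgeR 4.0.16 (R 4.3.3) by quasi-likelihood (TMM factors, default filter, 6 libraries in 1 fit, cell type as the only term, Benjamini-Hochberg over all 14324 genes, calls at adjusted p under 0.05). Rounding and reads shared by transcripts blur low counts and transcripts, and without stated strand, overlapping genes cannot be told apart; E130114P18Rik, opposite the Nfia start, had 0 counts. Alternatives used limma 3.58.1 and DESeq2 1.42.0. Tests were run on simulated data first. Named were the members, the 3 genes most like each tested member, up to 4 called regulators by size in each direction, and Mir223 and Lyl1; 1 gene that this rule names is not reported here. Members and lists were chosen with earlier results of these data known. Intervals and floors cover counting error only.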

Additional observations from a re-analysis of the deposited data

How the results depend on the processing

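In EoP against GMP the 2 members called became 1 with a minimum change of 1.5-fold and 1 in limma on log2(RPKM + 0.5), and 0 in limma on log2(RPKM + 0.1) and 0 in limma on log2(RPKM + 0.5) without a filter. It was 0 to 2 with 1 library left out. In Eos against EoP the 1 member called became 0 in the unfiltered limma fit, and the count in Eos against GMP stayed at 1 in all 20 alternatives. The directions of the Nfia and Nfix changes that passed were kept in every alternative that gave a value; Nfia did not reach 1 RPKM in 2 libraries, so the filtered RPKM fits gave it none. The Nfic log2 fold change had the opposite sign in EoP against GMP at 0.04, 0.043 and 0.04 in the 3 RPKM fits and ran from −0.43 to 0.11 without a library. In Eos against EoP it was −0.24, −0.26 and −0.24 in the same fits. In Eos against GMP it was 0.078 with DESeq2 size factors, 0.079 in DESeq2, 0.02 without a filter and 0.12 with the 2 groups alone, and −0.20 to 0.36 without a library. Nfia in Eos against GMP was −0.022 with library size alone and −0.114 with transcripts of equal count taken once, an alternative added after seeing the data. Scaling by library size alone moved the median of all genes by −0.47 in EoP against GMP and by −0.58 in Eos against GMP. The number of transcripts called in Eos against GMP was 0 with the replicate block and 0 to 1 without a library. With the replicate block no gene call of a member changed; same-numbered libraries share only a number (correlations of their deviations −0.1, 0.019 and −0.085).

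As shares of TMM-scaled CPM, which do not allow for length, Nfic made up 69.8% in GMP, 83.5% in EoP and 80.5% in Eos, Nfix 22.2%, 12.2% and 6.23%, and Nfia 7.59%, 4.29% and 13.0%. With the highest transcript of each gene, Nfic made up 48.7%, 78.9% and 84.2% in the same order, Nfix 19.2% in EoP and 9.22% in Eos, and Nfia 6.22%, 1.83% and 6.24%. At a −log10 q of at least 10 a promoter peak was left for 2 members in GMP, 0 in EoP and 2 in Eos, and for 34.6%, 25.4% and 27.4% of all genes in the same order. Nfib, with at most 5 counts in a library, was too low to test, and 2 libraries a group leave the EoP against GMP calls dependent on each library.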

Other observations

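The genes next to the NFI genes in the tables had the following values; whether a neighbour and a member changed alike was not tested. Lyl1, a stem cell and myeloid transcription factor gene, ends 2882 bases from Nfix on chromosome 8 and had 202 and 216 CPM in Eos, against 138 and 128 CPM in EoP (log2 fold change 0.65, SE 0.20, edgeR adjusted p = 0.0306), a call lost without any GMP or EoP library. It had 154 and 170 CPM in GMP and did not pass in EoP against GMP (−0.28, adjusted p = 0.339) or in Eos against GMP (0.37, adjusted p = 0.146), where Nfix was 4.08-fold lower. Dand5, on the other side of Nfix, had log2 fold changes of −0.36 in EoP against GMP, −0.64 in Eos against EoP and −1.004 in Eos against GMP, the sign of Nfix in each, and did not pass (adjusted p from 0.196 to 0.711); its Eos libraries lay below its GMP libraries without overlap. Tm2d1, beyond Nfia, did not pass either (0.0856 to 0.479). Gm12695 and Gm5860, beside Nfia and Nfib, had at most 7 counts in any library. Zdhhc21, beyond Nfib, fell by 1.12 (SE 0.29) in Eos against EoP, a call lost without EoP replicate 2, and by 1.79 (SE 0.30) in Eos against GMP. 2210404O07Rik, 1111 bases from the end of Nfic, fell by 1.12 (SE 0.34) in EoP against GMP, a call lost without any GMP or EoP library. Celf5, beyond the start of Nfic, had 11 and 18 counts in GMP, 0 and 1 in EoP and 4 and 1 in Eos. It was lower than in GMP in EoP (adjusted p = 0.0143) and in Eos (adjusted p = 0.0302), but these calls were lost in 4 and 5 of 6 fits without a library.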
